A study of Mus musculus with 10 samples.

Results

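Replication-dependent histone genes encode the core histones H2A, H2B, H3 and H4 and the linker histones H1 that package newly copied DNA. Members were the gene rows named H2ac, H2bc, H3c or H4c followed by a number, together with H1f1 to H1f5, which gave 64 of 55809 gene rows. The 64 were 5 H1, 18 H2A, 17 H2B, 12 H3 and 12 H4 genes. On GRCm39, 54 of them lay on chromosome 13 between 21899933 and 24118834, and 10 lay on chromosome 3 between 96127181 and 96177448. The members were matched by name alone, but the list was chosen with earlier results of these data known.

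These genes are transcribed as cells copy their DNA. Most of their mRNAs have no poly(A) tail and end shortly after a conserved stem-loop, which is bound by Slbp and cut by a dedicated processing complex. A share of transcripts can run past the stem-loop and be polyadenylated at sites further on, and cells outside the cycle mainly carry such forms. Libraries primed on poly(A) therefore sample these genes in part.

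The libraries were made from Treg cells of pooled spleen and lymph nodes. All mice carried Foxp3-AID, a Foxp3 locus changed so that its protein carries an auxin-inducible degron, with a ZsGreen reporter and Cre. In the R26-TIR1(F74G) group (6 libraries, replicates 5 to 10) the ROSA26 allele also encodes TIR1(F74G) and mCherry behind a STOP cassette that Cre removes, so that the agent 5-ph-IAA triggers loss of the Foxp3 fusion. The R26-WT group (4 libraries, replicates 1 to 4) has an unmodified ROSA26 allele. Both groups were given 5-ph-IAA for 14 days, the labels state no age, and there was no group without the agent. The effects of TIR1(F74G) itself and of Foxp3 loss cannot be told apart in this design. Degradation acts on the protein, so the Foxp3 mRNA does not check the labels.

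Counted read pairs ranged from 24158699 to 54795718 per library, and the smallest library was R26-TIR1(F74G) replicate 8. None of the 9 Treg and T cell markers was called, and their summed level was 5161 to 6085 CPM (a gene's share of a library's counts, scaled to the same total) in R26-WT and 4936 to 5659 CPM in R26-TIR1(F74G). None of the tested markers of other cells was called either (3 of 6 for B cells, 2 of 5 for plasma cells, 3 of 7 for myeloid cells, 5 of 6 for CD8 and NK cells and 2 of 8 for erythroid cells). The B cell sum was 19.1 to 31.7 CPM in R26-WT and 16.6 to 27.7 CPM in R26-TIR1(F74G), and the plasma cell sum was 202.1 to 247.3 and 211.4 to 275.6 CPM. The myeloid sum was 1.71 to 2.78 and 1.80 to 3.46 CPM, the CD8 and NK sum 27.6 to 42.4 and 25.6 to 32.6 CPM, and the erythroid sum 0.448 to 1.00 and 0.529 to 1.41 CPM. Single genes made up most of 2 of these sums. Xbp1 had a mean of 9663 counts scaled for library size, against 0 to 453.3 for the rest of the plasma cell list. Cd8b1 had 1350, against 0 to 21.9 for the rest of the CD8 and NK list. Mzb1, Cd14 and Ncr1, defining markers of plasma, myeloid and NK cells, had no count in any library. The part of other cells in the histone values was not tested.

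The stem-loop was looked for on the sense strand of each member, as GG with 4 further stem bases, a loop of TTT and any base, and the 6 bases that pair with the stem. It was found with all 6 pairs intact in 59 of the 64 members, and not in H2bc21, H2ac14, H2ac22, H3c8 or H4c1. In the 300 bases around the annotated 3′ end it was present in 37 of the 64 members (57.8%) and in 7 of 55745 other gene rows (0.0126%). The members below are the ones the results turn on, 5′ to 3′, with the 16 bases of the stem-loop in capitals and the strand after the position.
H1f5 (chr13:21964002-21964027, minus): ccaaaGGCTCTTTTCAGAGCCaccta
H1f2 (chr13:23923490-23923515, plus): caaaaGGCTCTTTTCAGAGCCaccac
H2bc4 (chr13:23868625-23868650, plus): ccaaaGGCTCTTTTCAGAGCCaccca
H3c6 (chr13:23746072-23746097, minus): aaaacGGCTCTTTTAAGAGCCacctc
H2ac20 (chr3:96127729-96127754, minus): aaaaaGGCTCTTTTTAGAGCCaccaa
H4c4 (chr13:23765928-23765953, plus): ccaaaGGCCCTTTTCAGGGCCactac
H4c14 (chr3:96170250-96170275, minus): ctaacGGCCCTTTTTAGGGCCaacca

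The stem-loop came in 6 kinds, which set the H4 genes apart but did not separate the other classes from each other. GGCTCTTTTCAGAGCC was shared by 39 members of the H1, H2A, H2B and H3 classes, and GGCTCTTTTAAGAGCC by 8 members of H2A, H2B and H3. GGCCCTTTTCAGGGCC was found in 7 members, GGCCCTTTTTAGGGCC in 2 and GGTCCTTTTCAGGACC in 2, all of them H4 genes. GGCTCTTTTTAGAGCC was found in H2ac20. H1f5, the only member called, therefore carries the same 16 bases as H1f2 and H2bc4, which were not called.

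Few members had more than a handful of reads. A mean count of at least 10 over the 10 libraries was reached by 21 of the 64, which were 5 of 5 H1, 3 of 18 H2A, 5 of 17 H2B, 3 of 12 H3 and 5 of 12 H4 genes. These 21 held 95.96% of all counts on the members. The other 43 had mean counts of 0 to 9.7 and no single count above 19, and they were not tested. H2bc11 lay just inside the threshold with a mean count of 10.1, and H2ac15 just outside with 9.7. No read was counted in any library for 10 members, of which 4 were H2A, 4 H2B and 2 H3 genes; a count of 0 allows up to 3 counts per library and does not show absence.

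Most of the counts on the members fell on those whose annotated exons run on past the stem-loop. A tail of at least 100 counted exon bases past the stem-loop, a limit set after the annotation and the counts had been seen, was present in 22 members, of which 14 were tested. The median level of these 22 was 34.8 normalized counts per kilobase, after division of each library by its DESeq2 size factor, and they held 84.49% of the summed counts. The 37 members with a shorter tail had a median of 4.63 normalized counts per kilobase and held 8.70% of the summed counts, and 6 of them were tested. H2bc21, for which no stem-loop was found, was tested as well.

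Repeated sequence and overlap with other genes differed along with the tail. The median share of stretches of 50 bases that occur more than once in the genome was 28.8% in the members with a tail and 67.1% in those with a shorter one. It was 19.6% in the tested members and 67.5% in the others, and reads from such stretches can fail the mapping quality of 30 that counting required. H2ac19, H2ac23, H2bc23 and H2bc24 consisted of repeated stretches alone and had no count, and H2ac24, also repeated throughout, had 1 count in 1 library. Read pairs that hit several genes were left out of the counts, and other annotated genes overlap 19 of the 43 members that were not tested and 5 of the 21 tested. H2ac18, H2ac19, H3c13, H3c14 and H2bc18 are overlapped over 100% of their exon bases, and none of them had a count, although H3c14 has 1167 counted bases past the stem-loop and H2bc18 has no repeated stretch. Of the other members with no count, H2ac1 is overlapped over 33.1% and has 2.35% of its stretches repeated, and H2bc1 is not overlapped and has 38.2% repeated, both with no counted base past the stem-loop. The parts of tail, repeats and overlap in the levels were not tested apart.

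**Figure D1:**
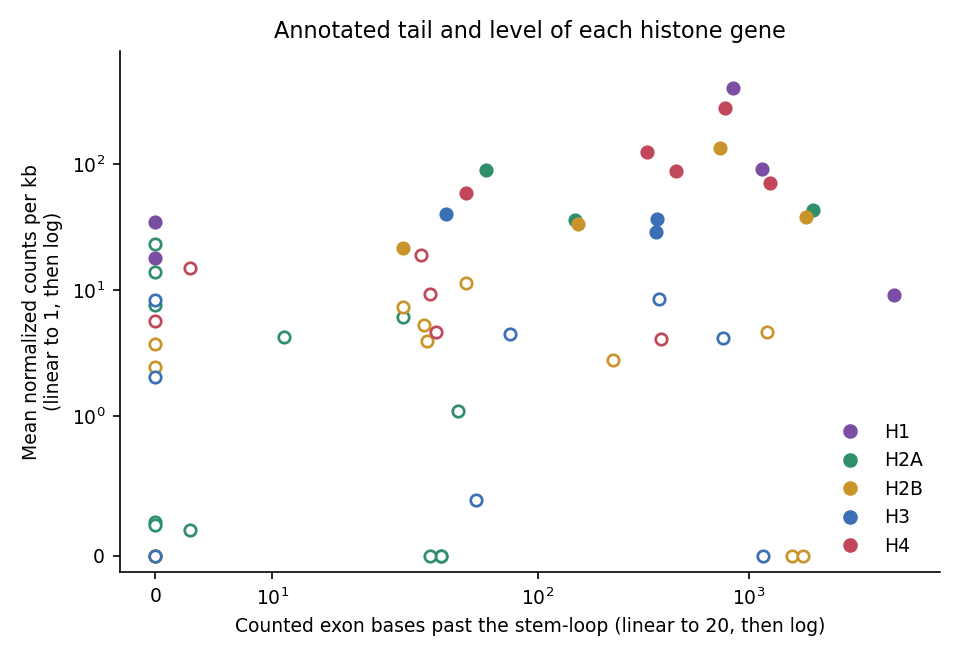
Counted exon bases past the stem-loop (horizontal, linear to 20 and then logarithmic) against the mean normalized counts per kilobase over 10 libraries (vertical, linear to 1 and then logarithmic) for the 59 members with a stem-loop, coloured by class. Filled points are the tested members, and the highest is H1f2 at 403.9.

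H1 linker histones bind the DNA between nucleosomes, and all 5 had enough reads to be tested. H1f2 had the highest level per kilobase of all members, 403.9 normalized counts, and H1f5 had 34.8. H1f5 (chromosome 13, 21964053 to 21964795, minus strand) has no counted base past its stem-loop and no repeated stretch of 50 bases.

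H1f5 was the only member that DESeq2 called. Its normalized counts were 18.3, 9.84, 14.6 and 5.07 in the R26-WT libraries and 29.0, 48.3, 30.6, 30.1, 58.4 and 14.8 in R26-TIR1(F74G) replicates 5 to 10. In 5 of the R26-TIR1(F74G) libraries the value was above every R26-WT value, and replicate 10 lay within their range. The raw counts behind these values were small, from 6 to 23 in R26-WT and from 17 to 54 in R26-TIR1(F74G). The log2 fold change of H1f5, R26-TIR1(F74G) over R26-WT, was 1.55 with an SE of 0.45, and DESeq2 gave an adjusted p of 0.0408. The edgeR quasi-likelihood test did not call it (adjusted p 0.245), and the DESeq2 call was also lost in 8 of the 10 fits that each left out 1 library, and was kept without R26-WT replicate 1 (adjusted p 0.0283) and without R26-TIR1(F74G) replicate 10 (0.00648). Without R26-WT replicate 4, the library with the lowest value, the log2 fold change was 1.29 (DESeq2 adjusted p 0.26).

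The other H1 genes did not pass the test. H1f2 had 592.4, 413.2, 1019 and 809.3 normalized counts in R26-WT, and a lowest, median and highest value of 370.3, 580.2 and 866.3 in R26-TIR1(F74G), so the groups overlapped over most of their range (log2 fold change −0.30, SE 0.27). H1f4 had 155.3, 118.1, 286.5 and 220.7 in R26-WT and 107.4, 146.4 and 276.9 in R26-TIR1(F74G) (log2 fold change −0.23, SE 0.30). Its sign turned without R26-WT replicate 3 (0.014). Exons of H2bc6 and Gm11398 overlap 25.7% of its counted exon bases, and read pairs that hit several genes were left out of the counts. H1f3 and H1f1 had log2 fold changes of 0.38 and 0.40 with SEs of 0.35 and 0.57.

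**Figure D2:**
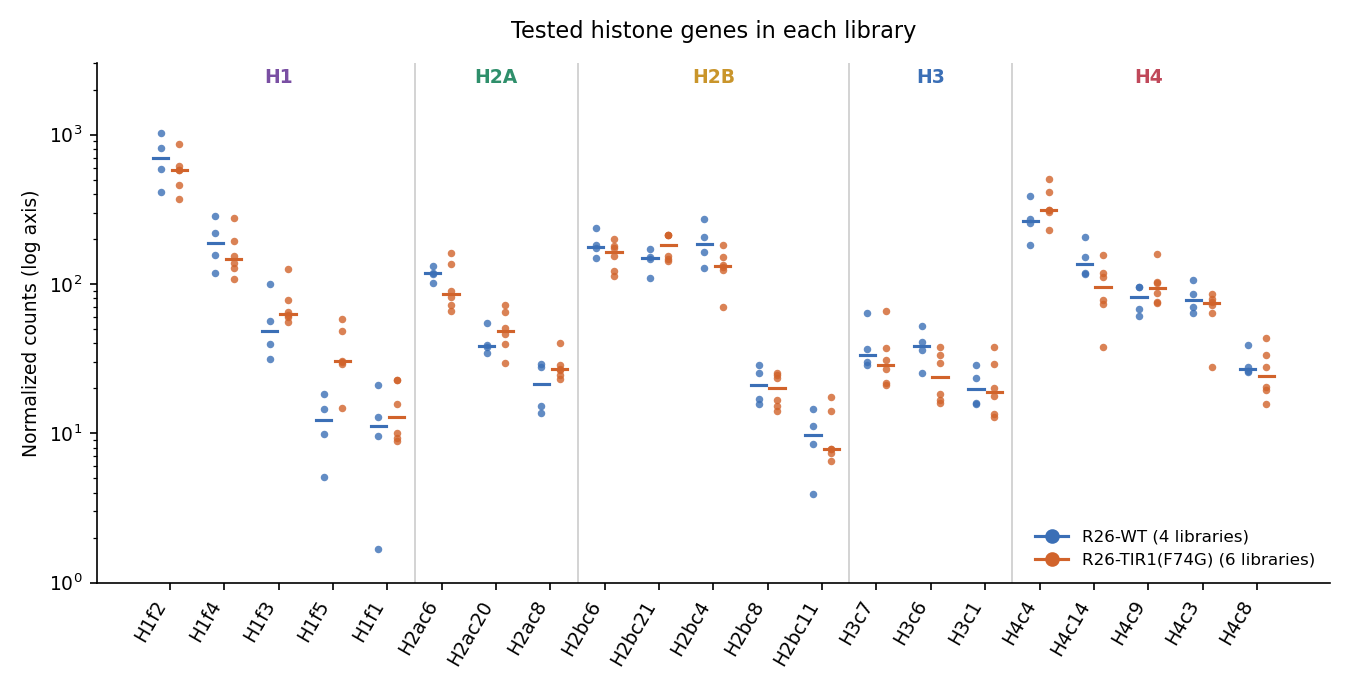
Normalized counts (logarithmic axis) of the 21 tested members in each of the 4 R26-WT and 6 R26-TIR1(F74G) libraries, with a bar at each group's median. The groups overlap for all 21, including H1f5, where 1 R26-TIR1(F74G) library (14.8) lies in the R26-WT range of 5.07 to 18.3.

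H2A and H2B pair as dimers on the outside of the nucleosome, and none of the 8 tested genes of these classes passed the test. H2bc4 (chromosome 13, 23868182 to 23876891) had the lowest unadjusted p among them. It had 164.8, 126.9, 205.1 and 271.4 normalized counts in R26-WT and a lowest, median and highest value of 70.4, 131.9 and 181.8 in R26-TIR1(F74G), and its log2 fold change was −0.55 with an SE of 0.27. In DESeq2 its unadjusted p was 0.0429 and its adjusted p 0.6765. Of the 6 R26-TIR1(F74G) libraries, 4 were within the R26-WT range and the other two below it. The highest R26-WT value, in replicate 4, weighed on the estimate, which was −0.34 without that library.

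H2bc21 on chromosome 3, the member without a stem-loop, had the smallest SE. It had 151.3, 110.2, 147.3 and 170.8 normalized counts in R26-WT and 142.4, 182.5 and 212.9 as the lowest, median and highest value in R26-TIR1(F74G) (log2 fold change 0.31, SE 0.20). H2bc6 had 148.9, 181.0, 173.4 and 238.5 in R26-WT and 113.0, 163.3 and 200.1 in R26-TIR1(F74G) (log2 fold change −0.24, SE 0.21). Both genes had overlapping groups. H2bc8 and H2bc11 had log2 fold changes of −0.11 (SE 0.35) and 0.06 (SE 0.52).

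Among the H2A genes, H2ac20 was the highest per kilobase, at 90.2 normalized counts. It had 39.02, 34.4, 54.5 and 38.0 normalized counts in R26-WT and 29.6, 48.2 and 72.5 in R26-TIR1(F74G) (log2 fold change 0.28, SE 0.29). H2ac6 had 101.9, 130.9, 118.8 and 116.7 in R26-WT and 65.7, 85.8 and 160.1 in R26-TIR1(F74G), a wider range than in R26-WT and on both sides of it (log2 fold change −0.21, SE 0.27). H2ac8 had 27.9, 13.8, 29.3 and 15.2 in R26-WT and 23.2, 26.8 and 40.0 in R26-TIR1(F74G) (log2 fold change 0.39, SE 0.34).

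H3 and H4 form the tetramer at the centre of the nucleosome, and none of their 8 tested genes passed the test. H4c4 was the second highest member per kilobase, at 279.5 normalized counts. Its values were 257.2, 183.0, 389.0 and 274.0 in R26-WT and 230.5, 313.7 and 502.9 in R26-TIR1(F74G) (log2 fold change 0.33, SE 0.25). H4c9 had 67.7, 61.0, 95.2 and 95.6 in R26-WT and 74.1, 93.9 and 157.9 in R26-TIR1(F74G) (log2 fold change 0.32, SE 0.26). H4c3 leaned the other way, with 70.1, 64.0, 105.8 and 86.2 in R26-WT and 27.8, 74.1 and 86.3 in R26-TIR1(F74G) (log2 fold change −0.28, SE 0.30).

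H4c14, on chromosome 3, had the lowest log2 fold change of the tested members, −0.63, with an SE of 0.33 and an adjusted p of 0.791 in DESeq2. It had 117.8, 117.1, 152.2 and 204.6 normalized counts in R26-WT and 38.0, 94.7 and 155.7 in R26-TIR1(F74G), where 4 libraries were below every R26-WT library and the other two were among them. H4c8 had a log2 fold change of −0.15 (SE 0.34).

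The 3 tested H3 genes had between 28.7 and 40.3 normalized counts per kilobase. H3c6 had 25.5, 36.4, 40.7 and 52.4 normalized counts in R26-WT and 15.9, 24.01 and 37.9 in R26-TIR1(F74G) (log2 fold change −0.61, SE 0.35), and 73.4% of its stretches of 50 bases are repeated, so its count is uncertain. H3c7 had 36.6, 28.5, 30.1 and 63.4 in R26-WT and 21.2, 28.8 and 66.0 in R26-TIR1(F74G) (log2 fold change −0.23, SE 0.39). H3c1 had 28.7, 15.7, 23.6 and 16.1 in R26-WT and 13.0, 18.8 and 38.0 in R26-TIR1(F74G) (log2 fold change 0.06, SE 0.40). The sign for H3c7 turned without R26-WT replicate 4 (0.088), and that for H3c1 turned in 4 of the 10 fits without a library.

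**Figure D3:**
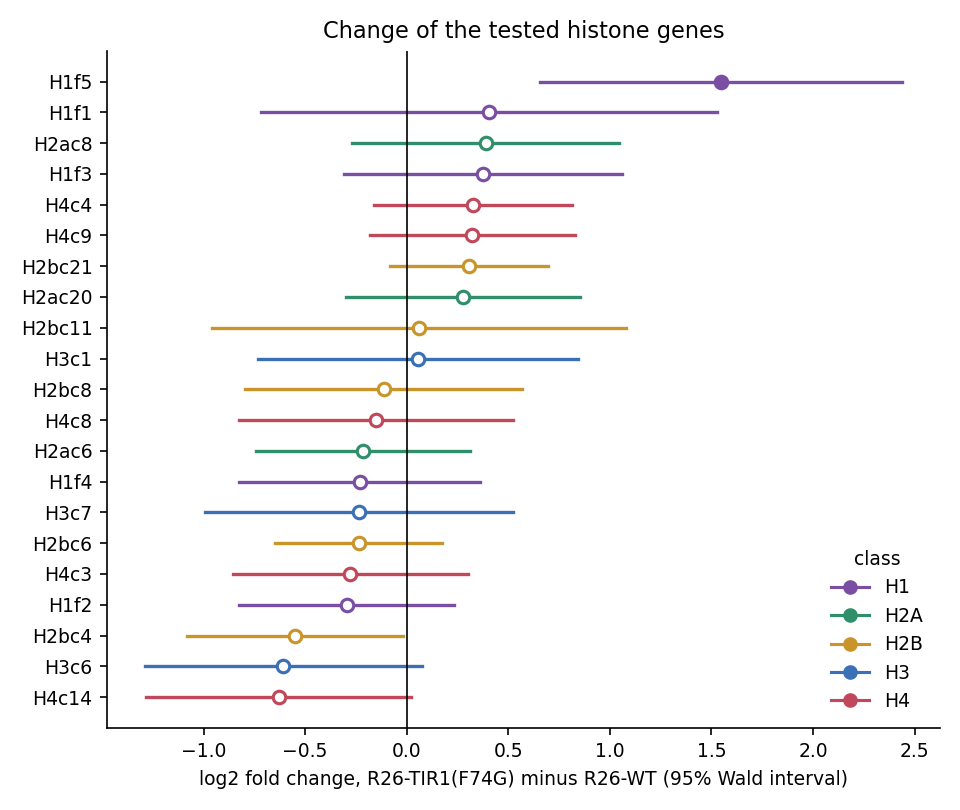
The log2 fold change (R26-TIR1(F74G) minus R26-WT) of the 21 tested members with its 95% Wald interval, coloured by class. The filled point is H1f5 at 1.55, and the open points, from −0.63 to 0.40, did not pass the DESeq2 adjusted p threshold of 0.05.

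Over the tested members, DESeq2 called 1 of 21 higher and 0 lower, where it called 1.74% of the 16363 genes tested in either direction and 1.40% higher. The edgeR test called 0 of the 21, where it called 0.373% of all genes. At an unadjusted p under 0.05, DESeq2 had 2 members (H1f5 and H2bc4) against 6.86% of all genes, and edgeR had 1 (H1f5). Groups without overlap were found for 0 of the 21 members and 2.37% of all genes. The median log2 fold change was −0.11 over the members, 10 of them above 0 (47.6%), and 0.0006 over all tested genes, 50.1% of them above 0. The median log2 fold change of tested histone members turned to 0.0396 without R26-TIR1(F74G) replicate 7 and to 0.0084 without R26-WT replicate 4. The SE was larger for the members, with a median of 0.33 against 0.20, so that a change had to be larger than elsewhere to be detected.

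Summed over all 64 members, the histone level did not separate the genotypes. The sum was 50.5, 40.9, 72.7 and 66.9 CPM in R26-WT (57.8 ± 14.6, SD, n = 4) and 55.3, 59.9, 37.6, 52.5, 76.9 and 46.9 CPM in R26-TIR1(F74G) replicates 5 to 10 (54.9 ± 13.2, SD, n = 6). The difference of the means, −5.02%, was smaller than the SD of either group. As a log2 ratio it was −0.0743. It turned above 0 without R26-WT replicate 3 (0.0556), and also without R26-WT replicate 4 or R26-TIR1(F74G) replicate 7. In bulk samples such as these, fewer cells that express a gene and less RNA per cell cannot be told apart.

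Libraries in which long genes had lower counts relative to short ones had higher histone sums. The slope of a library's deviation from the mean log2 level of all libraries on log2 gene length, over genes whose mean count was 50 or more, was lowest in R26-WT replicates 3 and 4 (−0.138 and −0.107) and R26-TIR1(F74G) replicate 9 (−0.087), which had the 3 highest sums. It was highest in R26-TIR1(F74G) replicate 7 (0.169) and R26-WT replicate 2 (0.112), which had the lowest sums. After each library was corrected for gene length and GC content, the highest sum of the 21 tested members was 1.66 times the lowest, against 2.01 times before, and the groups still overlapped. H1f5 kept its DESeq2 call after this step (log2 fold change 1.55, adjusted p 0.0277).

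The mean sums of the members with a tail and of the rest differed between the genotypes in opposite directions, which was not tested. For the members with a tail the difference of the means, −9.84%, was smaller than the SD of either group. The sum of the 22 members with a tail was 50.1 ± 13.7 CPM in R26-WT (SD, n = 4) and 45.2 ± 12.1 CPM in R26-TIR1(F74G) (SD, n = 6), and 10 of the 14 tested ones had a log2 fold change below 0 (median −0.23). The sum of the other 42 was 7.62 ± 1.12 and 9.66 ± 1.34 CPM, and 6 of the 7 tested ones were above 0 (median 0.28). Without H1f5 the latter sum was 7.35 ± 1.08 and 8.84 ± 1.06 CPM. The 42 were 37 members with a shorter tail and 5 with no stem-loop found, which held 8.70% and 6.81% of the summed counts. Among the 5 was H2bc21, which had 144.9 ± 25.3 and 180.0 ± 35.7 normalized counts. The higher sum is therefore not one of short-tailed members alone, and the sum without H2bc21 was not computed. With the limit for a tail at 50, 200 or 400 bases in place of 100, the sum of the rest stood 27.5%, 25.1% and 18.4% higher in R26-TIR1(F74G). These ranges of the sum overlapped, and the members were not split before the values were seen. Signs of single members did not all hold without 1 library. Among those above 0, H3c1 turned in 4 of 10 fits and H2bc11 in 2 of 7. Among those below 0, H3c7, H2bc8, H1f4 and H4c8 each turned in 1 of 10.

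**Figure D4:**
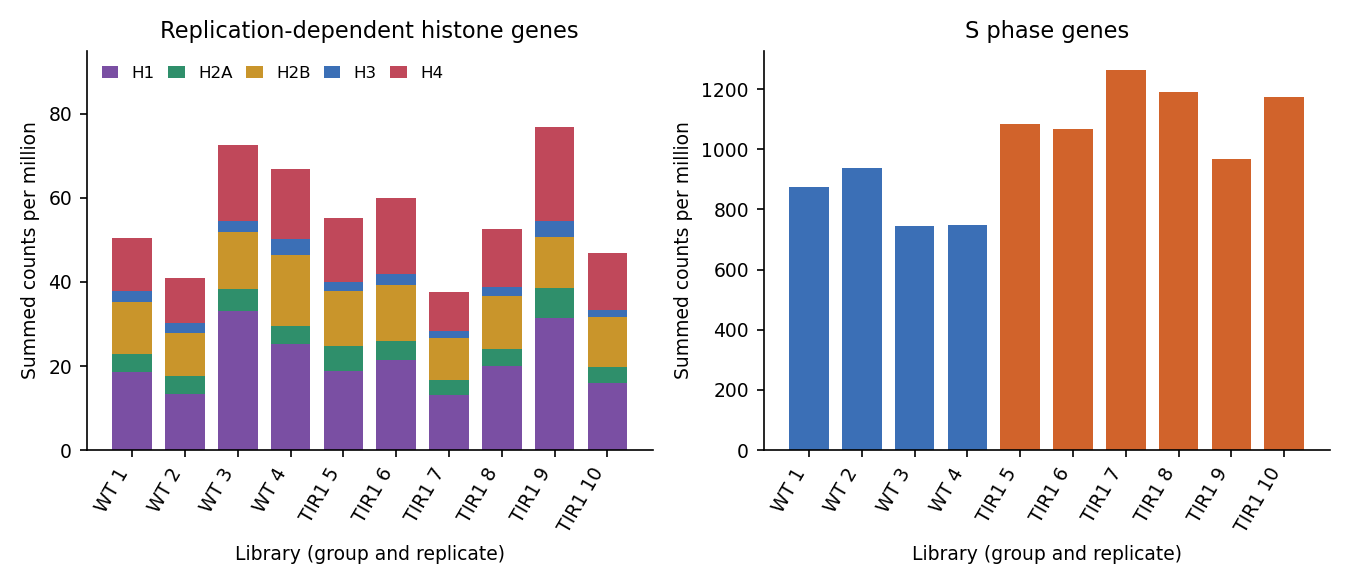
Summed CPM in each library of the 64 members, stacked by class (left), and of the 20 S phase genes (right), on separate axes that start at 0. The histone sums of the groups overlap (40.9 to 72.7 and 37.6 to 76.9 CPM), while the S phase sums run from 745.1 to 937.3 CPM in R26-WT and from 966.2 to 1264 CPM in R26-TIR1(F74G).

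Genes that act with histone synthesis were set beside the members, in lists chosen with earlier results of these data known. Counts of calls in these lists therefore describe them and are no independent test. Over all tested genes, DESeq2 called 1.74% and edgeR 0.373%. Of 20 S phase genes, which supply nucleotides and copy DNA, DESeq2 called 11 higher and 0 lower. The edgeR test called 3 (Rrm2, E2f1 and Mcm5), and 19 had a log2 fold change above 0 (median 0.45). Rrm2, the regulated subunit of ribonucleotide reductase, rose from 629.1 ± 116.2 (SD, n = 4) to 1701 ± 422.9 normalized counts (SD, n = 6), which is 1.43 on the log2 scale with an SE of 0.21 (adjusted p 3.39e-09 in DESeq2). Cdc6, which loads the replicative helicase, rose by 1.85 on the log2 scale (SE 0.36, DESeq2 adjusted p 8.71e-05) but was not called by edgeR (adjusted p 0.0862), and E2f1, a transcription factor of S phase genes, by 1.27 (SE 0.19, DESeq2 adjusted p 3.31e-08). For these 3 genes the lowest R26-TIR1(F74G) value exceeded the highest R26-WT value.

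The other called S phase genes had smaller fold changes than Cdc6. Log2 fold changes were 1.20 for Uhrf1, 0.95 for Ccne2, 0.75 for Gins2, 0.66 for Mcm3, 0.66 for Mcm5, 0.62 for Tyms, 0.41 for Prim1 and 0.34 for Mcm7. Of these, edgeR called Mcm5, and voom called Mcm5, Mcm3 and Uhrf1. Without 1 library, DESeq2 lost the call of Prim1 in 8 of 10 fits, Gins2 in 5, Tyms in 3, Mcm3 in 2 and Mcm7 in 1. Those not called included Mcm4 (0.36), Mcm6 (0.31), Rrm1 (0.29) and Dut (0.12), and also Pcna (−0.14), the DNA polymerase clamp, which was named after its value was seen. The S phase sum of each R26-TIR1(F74G) library was above that of each R26-WT library, which was not so for the histone sum. Within each genotype the S phase sum was highest in the library with the highest slope on gene length. These were R26-WT replicate 2 (937.3 CPM) and R26-TIR1(F74G) replicate 7 (1264 CPM). It was lowest at the lowest slope, in R26-WT replicate 3 (745.1 CPM) and R26-TIR1(F74G) replicate 9 (966.2 CPM). After correction for gene length and GC content, DESeq2 called 10 S phase genes. The difference between the histone and S phase lists was not tested.

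Histone chaperones carry histones to DNA, and 1 of 22 was called. Asf1b, which hands H3 and H4 to the assembly machinery, rose from 699.6 ± 69.2 to 1285 ± 184.1 normalized counts (SD, n = 4 and 6). Its log2 fold change was 0.88 with an SE of 0.14, and the adjusted p was 3.29e-07 in DESeq2 and 0.0189 in edgeR. The most abundant of the others were Rbbp4 (log2 fold change −0.06), Nap1l4 (0.04), Rbbp7 (0.02) and Ssrp1 (0.12). The list's median was 0.09.

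None of the 20 genes of histone mRNA processing and decay was called (median log2 fold change 0.07). Slbp, the stem-loop binding protein, had 5123 ± 283.1 and 5355 ± 663.9 normalized counts (log2 fold change 0.06, SE 0.12), and Npat, the coactivator of histone genes, had a log2 fold change of 0.14 (SE 0.27) that turned to −0.078 without R26-TIR1(F74G) replicate 7. Slbp and Npat were named after their values were seen. The 4 most abundant genes of the list had log2 fold changes of 0.02 (Nono), 0.0013 (Cpsf3), −0.0020 (Ncbp1) and 0.18 (Upf1).

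The list of replication-independent histones holds mainly variants, such as H3.3, that are made outside S phase from polyadenylated mRNAs. The description does not cover all of it, since H2ax also makes a stem-loop mRNA, Cenpa varies with the cell cycle, and H4f16 encodes H4. None of the 10 tested (of 12 in the files) was called, with a median log2 fold change of −0.07. H3f3b, which encodes H3.3, had 44431 ± 11344 normalized counts in R26-WT and 36555 ± 3499 in R26-TIR1(F74G) (log2 fold change −0.28 with an SE of 0.17, adjusted p 0.937 in DESeq2). Macroh2a1, H2az2 and H2aj had log2 fold changes of 0.02, −0.09 and 0.05. H4f16 had 126.6 ± 21.6 and 91.1 ± 18.3 normalized counts, with a log2 fold change of −0.49, an SE of 0.21 and an adjusted p of 0.427 in DESeq2, and was named after its value was seen.

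**Figure D5:**
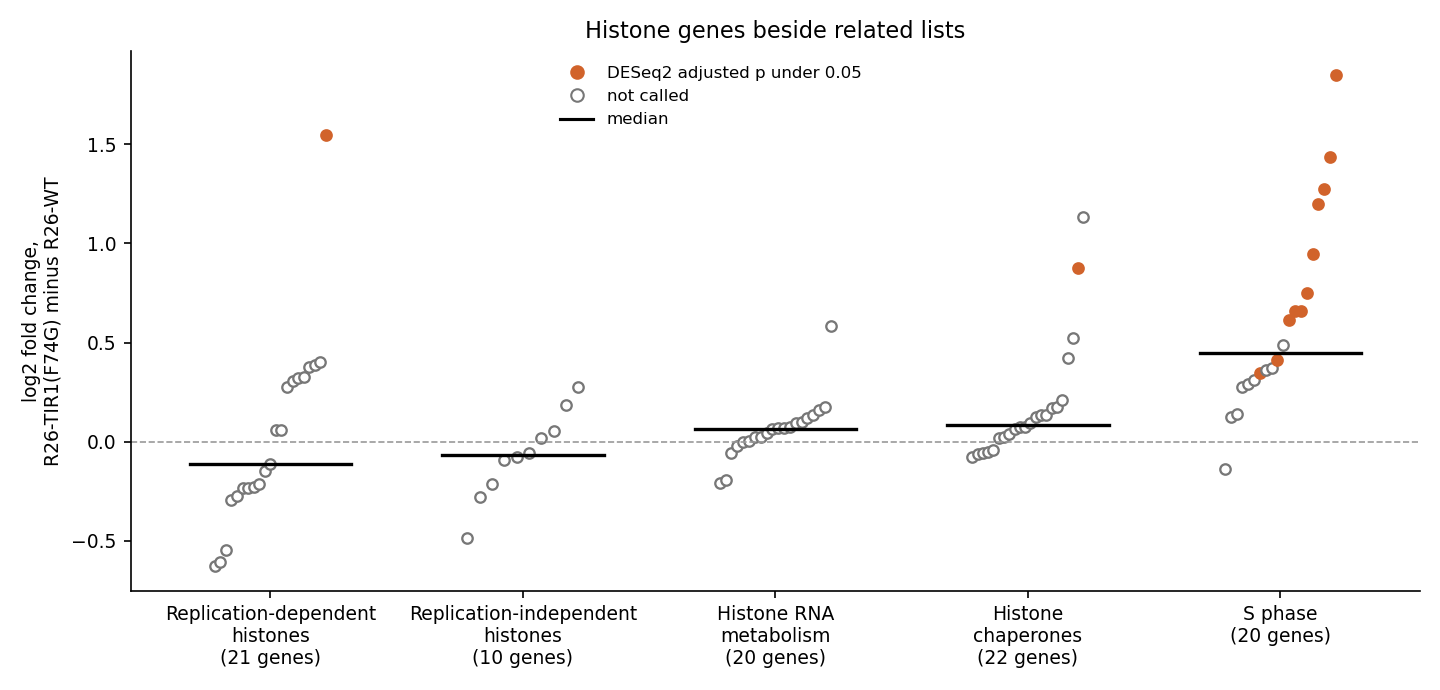
The log2 fold change (R26-TIR1(F74G) minus R26-WT) of each tested gene in 5 lists, with a line at the list's median. Filled points passed the DESeq2 adjusted p threshold of 0.05, which were 1 of 21 replication-dependent histone genes, 0 of 10 and 0 of 20 in the next lists, 1 of 22 chaperones and 11 of 20 S phase genes. DESeq2 called 1.74% of all tested genes, and the lists were chosen with earlier results of these data known.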

How the data were processed

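The deposited values were raw counts of read pairs per gene name, 1 library per file, not normalized by the authors. Per the labels, cDNA was amplified from polyA RNA with the SMART-Seq v4 kit, and no molecular identifiers are named, so reads duplicated in the PCR cycles cannot be recognised and the technical error may exceed the counting error. Per the file headers, the authors used featureCounts 2.1.1 with GENCODE release M30, primary alignments, both mates mapped and a mapping quality of at least 30, with no strand option. Overlapping and antisense genes can therefore lose or share read pairs. The study's methods name STAR for alignment and the submitters' processing notes name Bowtie2, so the aligner is uncertain. The study describes its bulk RNA-seq samples as sorted by flow cytometry, with Treg cells of R26-WT mice taken as ZsGreen+ and those of R26-TIR1(F74G) mice as ZsGreen+ mCherry+, so the gate differed with the genotype. Nothing says that each library is a separate mouse, so p-values measure the spread between libraries.

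Libraries held 24158699 to 54795718 counted pairs. Genes were kept at mean counts of 10 and above, which left 16363 that were tested with DESeq2 1.42.0 in R 4.3.3 (two-sided Wald test on genotype, with p-values adjusted by Benjamini-Hochberg and a threshold of 0.05), with the edgeR 4.0.16 quasi-likelihood test beside it. Alternatives were limma 3.58.1 voom with quality weights, TMM scaling, no minimum or a minimum mean count of 50, thinning to the smallest library, a correction for gene length and GC content, and leaving out each library. Scripts were tested on simulated data. Stem-loops and repeated stretches of 50 bases were read from GRCm39, searching to 150 bases past the annotated end. Release M39 held 63 of the 64 members at an overlapping place, 55 with the same start and end.

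The members, gene lists and tests were chosen with earlier results of these data known. Named members were those called and, in each class, the 3 highest per kilobase of counted exon. Named genes of the related lists were those called and up to 4 others of highest mean normalized count, beside 5 named after their values were seen. Marker lists covered Treg and T cells, erythroid cells, myeloid cells, B cells, CD8 and NK cells, and plasma cells.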

Additional observations from a re-analysis of the deposited data

Results flagged for a closer look

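In 9 of 112 groups of values examined, the highest or lowest library stood apart from the rest of its genotype by Dixon's criterion, where chance gives 5.6. Of the histone genes, H4c9 (157.9 normalized counts, the others 74.1 to 102.7), H3c7 (66.0, the others 21.2 to 37.1) and H1f3 (125.5, the others 55.6 to 77.8) were high in R26-TIR1(F74G) replicate 9, whose histone sum was also the highest. H2ac8 was high in R26-TIR1(F74G) replicate 6 (40.05, the others 23.2 to 28.6) and H4c8 in R26-WT replicate 4 (38.9, the others 25.6 to 27.7). In R26-TIR1(F74G) replicate 7, Uhrf1 (1726, the others 802.5 to 1120) and Npat (2354, the others 1046 to 1353) were high and Nap1l4 was low (16828, the others 18224 to 18956). Ssrp1 was low in R26-TIR1(F74G) replicate 9 (10778, the others 12923 to 13932).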

How the results depend on the processing

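The call of H1f5 rested on few counts, and the 43 members under the count minimum could not be tested. The DESeq2 call of H1f5 gave way to 0 called members with edgeR, with voom, with no minimum count (H1f5 adjusted p 0.0554), with thinned counts (0.194) and with a minimum mean count of 50, under which H1f5 was not tested and 11 members remained; its DESeq2 adjusted p ran from 0.00648 to 0.26 without 1 library. Genes called in all were 61 with edgeR and 80 with voom, and S phase genes called 3 and 6, against 284 and 11. Corrected for gene length and GC content, 1 replication-independent histone (H2ax, log2 fold change 0.23) and 3 chaperones (Asf1b, Chaf1a and Mcm2) were called, and 272 genes were higher and 114 lower, against 229 and 55. Without 1 library, genes called ranged from 187 to 346, members called from 0 to 1, chaperones from 1 to 3 and S phase genes from 7 to 10. The members' median log2 fold change was 0.19 over the members with a count when no minimum was set, and −0.23 with a minimum of 50. The causes were not tested.

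Some genes that were not called changed sign. H3c1 was −0.0898 with voom. The log2 fold change of Cpsf3 was −0.005 with edgeR and with TMM scaling, −0.0048 with voom, −6e-04 with a minimum of 50 and −0.0594 with that correction. Ncbp1 was 0.024 with voom and 0.0126 with thinned counts. H2aj was −0.0323 and Rbbp7 −0.0156 with voom, and Nono was −0.0111 and Macroh2a1 −0.083 with that correction. Without 1 library the ranges were −0.1874 to 0.1642 for H2bc11, −0.3425 to 0.0094 for H4c8, −0.5442 to 0.0883 for H3c7, −0.2336 to 0.0519 for H2bc8, −0.4351 to 0.0142 for H1f4, −0.1789 to 0.2443 for H3c1, −0.025 to 0.0256 for Cpsf3, −0.0516 to 0.052 for Ncbp1, −0.0311 to 0.468 for Upf1, −0.0476 to 0.0866 for Macroh2a1, −0.211 to 0.0217 for H2az2, −0.0654 to 0.1833 for H2aj, −0.0275 to 0.0715 for Rbbp7 and −0.0776 to 0.3572 for Npat. No paired analysis was possible because replicate numbers run from 1 to 4 in one genotype and from 5 to 10 in the other.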
